A study of Mus with 6 samples.

Results

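Small nucleolar RNAs (snoRNAs), the related small Cajal body RNAs (scaRNAs) and the long non-coding genes that carry snoRNAs in their introns were measured in right-sided substantia nigra pars compacta, the dopaminergic midbrain nucleus, of mice overexpressing human alpha-synuclein with the A53T substitution. All 42 names in the authors' deposited table by gene name that begin with Snora, Snord, Scarna or Snhg, together with Gas5, were taken, out of 2282 names in that table. They comprise 13 H/ACA snoRNAs, 15 C/D snoRNAs, 2 scaRNAs and 12 host genes. Both groups carried the transgene and had 3 samples each. The model group was given 0.9% saline and the other group AVE0991, an agonist of the angiotensin-(1-7) receptor Mas, at 10 mg/kg, by intraperitoneal injection daily for 30 days. No animals without the transgene are among the samples, and the sources used here do not give the promoter of the transgene, the age of the mice or whether each sample is 1 animal. The p-values therefore reflect only the spread between the samples at hand, part or all of which can be technical.

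snoRNAs are short, stable nucleolar RNAs that guide chemical marks onto ribosomal RNA. Those of the C/D type bind fibrillarin and direct 2'-O-methylation, and those of the H/ACA type bind dyskerin and direct conversion of uridine to pseudouridine. A few act in cleavage of the ribosomal RNA precursor instead, and scaRNAs modify spliceosomal RNAs in Cajal bodies. In mammals most are cut from introns of other genes after splicing, so that 1 transcript yields both a spliced host RNA and its guests. Many hosts encode ribosomal proteins, whereas the Snhg genes and Gas5 have spliced products that code for no known protein and are in large part rapidly degraded. Neurons make large amounts of ribosomes, and some snoRNAs, such as Snora35, lie in genes used mainly in brain.

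The deposited named table gives a group mean, a test statistic and its degrees of freedom for each name. Whole counts for each library were recovered from these 3 values, and all 42 RNAs had exactly 1 set of counts that returned them. The 3 recovered libraries of each group are called a, b and c in the order of their scaling factors and carry no replicate number. Levels are given as normalized counts, which are counts divided by the authors' library factors, and fold changes come from an edgeR quasi-likelihood fit over all names with its own scaling, so a fold change can differ slightly from the ratio of 2 mean levels. Recovered totals over named RNAs ran from 1777339 to 2344269 counts a library. Model library c lay nearer to the treated libraries than model libraries a and b did. Across names it had Spearman correlations of 0.951 to 0.958 with the treated libraries, against 0.920 to 0.932 for model libraries a and b. It was still closer to its own group, at 0.968 with model library a and 0.967 with model library b. The authors label the named table as one of long non-coding RNA genes. The 22 markers of dopaminergic neurons and other brain cells that were looked for are protein-coding genes, and none is in that table. Their absence says nothing about the tissue, so the tissue label was not checked. Shares of all names given below are shares of this table, not of all expressed genes. The counts do not tell fewer cells of a type from less RNA per cell.

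Few of these RNAs passed the test for a difference between the groups. After a filter on low counts, 40 of the 42 were tested, and 4 passed an adjusted p of 0.05 (edgeR, Benjamini-Hochberg over 1867 names): Snora24 and Snord89 were higher with AVE0991, and Snora3 and Snhg8 were lower. This is 10.0% of those tested, against 16.2% of all names (7.82% higher and 8.36% lower). By class, 1 of 12 H/ACA snoRNAs rose and 1 fell, 1 of 14 C/D snoRNAs rose, neither of the 2 scaRNAs passed, and 1 of 12 host genes fell. At an unadjusted p under 0.05 there were 7, adding Snord118, Scarna8 and Snora33, where 30.8% of all names reached that level. The 3 libraries of each group did not overlap for 11 of the 40, 3 higher and 8 lower, against 39.0% of all names (16.5% higher and 22.5% lower).

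The fold changes were small. In 30 of 40 RNAs the log2 fold change lay within 0.5 of 0, against a smaller share, 1067 of the 1867, of all names. These shares were not matched for level, and whether level accounts for the difference was not tested. With a library left out, the log2 fold change of 32 of the 36 RNAs that did not pass moved by more than 1.5 times in at least 1 fit, and that of none of the 4 that passed. This measure is a ratio, which values near 0 exceed easily, and the 4 were picked as large against their spread. The contrast therefore does not show that the 4 calls are stable. Those of Snora24, Snora3 and Snord89 were lost in most of these fits. Median log2 fold changes were -0.16 for H/ACA snoRNAs, -0.16 for C/D snoRNAs, -0.07 for the pair of scaRNAs and -0.10 for host genes, and -0.01 over all names. In 26 of the 40 the value was below 0, or 65.0%, against 51.2% of all names. Summed levels overlapped between groups in every class: the 15 C/D snoRNAs came to 5807 ± 791 normalized counts in the model group and 5237 ± 239 with AVE0991 (SD, n = 3), the 13 H/ACA snoRNAs to 6415 ± 224 and 6206 ± 576, the 2 scaRNAs to 1067 ± 221 and 998.0 ± 104, and the 12 host genes to 12932 ± 441 and 13168 ± 775.

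**Figure D1:**
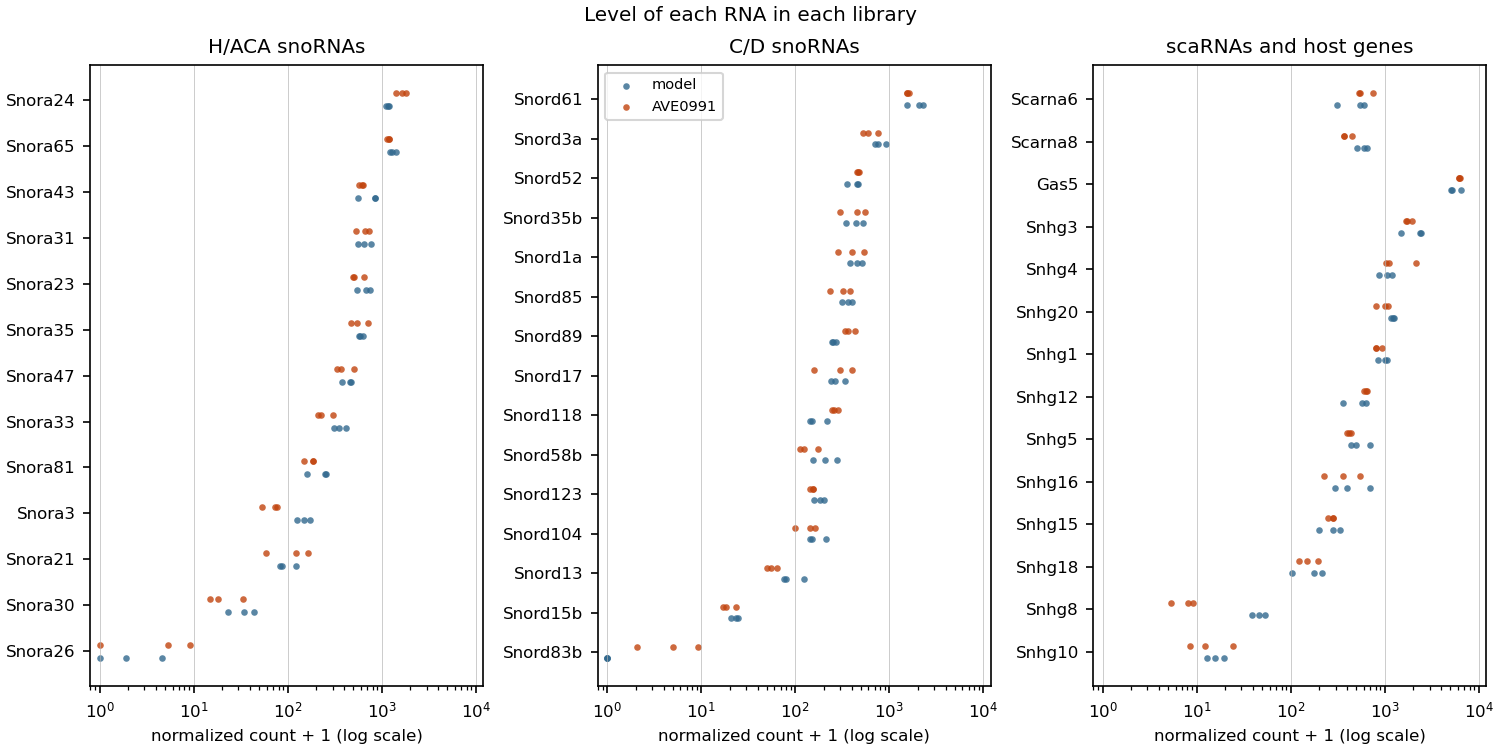
Normalized count plus 1 (log axis) of all 42 RNAs in each of the 6 recovered libraries, with model libraries in blue and AVE0991 libraries in orange, and RNAs ordered by mean level within H/ACA snoRNAs, C/D snoRNAs, scaRNAs and host genes. Levels span from Gas5 at 5124 or more to Snora26 and Snord83b at or near 0, and the groups lie on top of each other for most RNAs, with Snhg8 as the widest gap among those tested.

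**Figure D2:**
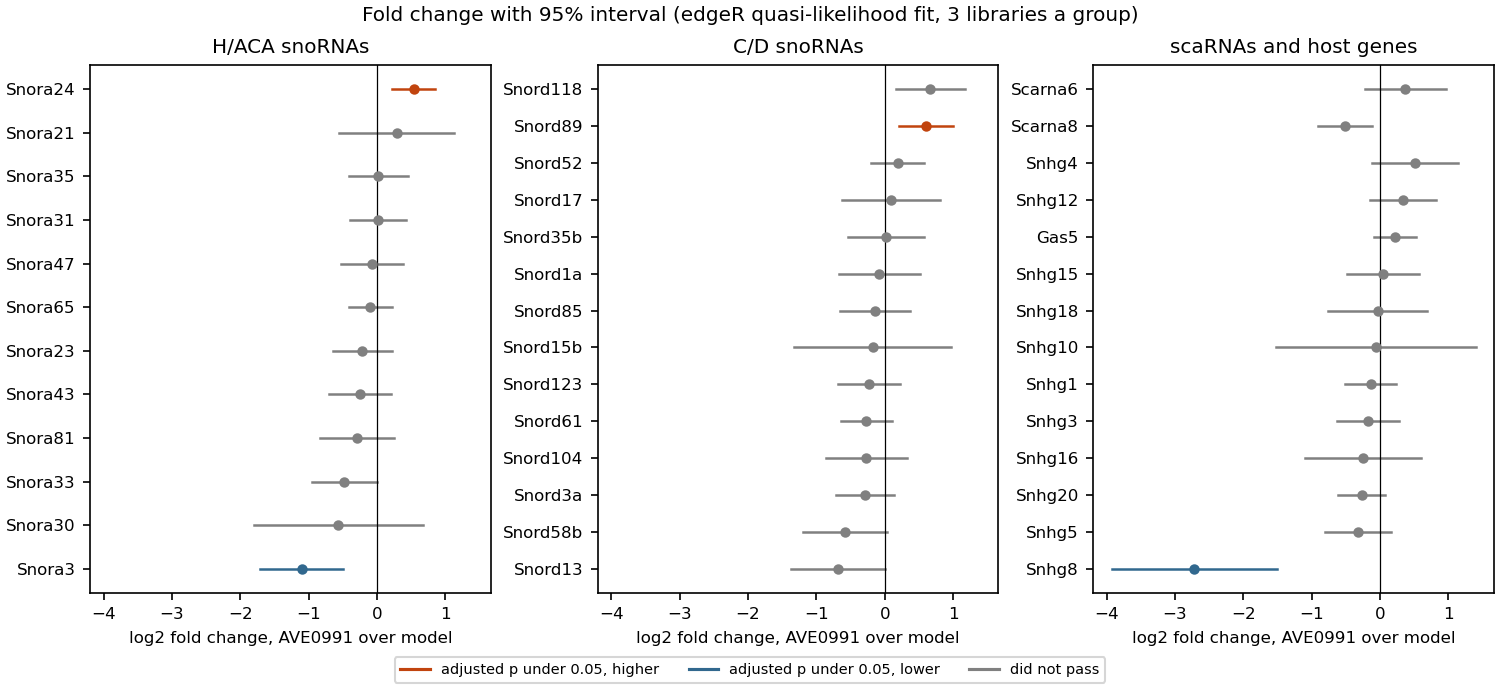
Log2 fold change of AVE0991 over model with its 95% interval (edgeR quasi-likelihood fit, 3 libraries a group) for the 40 RNAs tested, in orange or blue where the adjusted p was under 0.05 and in grey otherwise. Snora24 and Snord89 lie to the right of 0, Snora3 and Snhg8 to the left, and most other intervals cross 0.

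Snhg8 and Snora24 come from the same locus and moved in opposite directions. Snhg8 is a spliced non-coding host gene, and Snora24, an H/ACA snoRNA that guides pseudouridylation of the small-subunit ribosomal RNA, lies inside its RefSeq span of 785 bases. Snhg8 had 51.8, 45.6 and 37.9 normalized counts in libraries a, b and c of the model group and 7.06, 8.16 and 4.34 in those of the AVE0991 group. All 3 treated libraries were below all 3 model libraries, on 19 counts in total against 153. The log2 fold change was -2.72 ± 0.53 (SE), with an adjusted p of 0.0125 (edgeR quasi-likelihood test). That call was lost without model library a or b (edgeR adjusted p = 0.0647 and 0.0555).

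Snora24 was far more abundant. It had 1177, 1199 and 1098 normalized counts in model libraries a, b and c and 1815, 1633 and 1417 with AVE0991. The groups did not overlap, and the log2 fold change was 0.54 ± 0.14 (SE; edgeR adjusted p = 0.0340). When each library in turn was dropped, the call held in 1 of 6 fits, the one without model library c (edgeR adjusted p = 0.0491), and in the others the adjusted p ran from 0.0515 without AVE0991 library c to 0.116 without model library b.

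The ratio of Snora24 to Snhg8 was 22.7, 26.3 and 29.0 in the model libraries and 257, 200.1 and 326 in the AVE0991 libraries. On the log2 scale the group means differed by 3.31, with SDs of 0.18 in the model group and 0.35 with AVE0991 (n = 3; exact permutation test over samples, two-sided, p = 0.1, the smallest that 3 against 3 can give; 0.3 after adjustment over the 3 pairs tested). The direction was the same with any library left out, with differences from 3.13 to 3.49. The ratios did not overlap between the groups, so leaving out 1 library could not have reversed the direction. The sources used here do not say whether reads that overlap both genes were counted for the guest, the host, both or neither.

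In the other pairs that could be compared, the ratio of guest to host overlapped between the groups. A guest was paired with a host when its RefSeq span lies within the host's. This found 4 pairs with both members in the named table, of which Snora24 with Snhg8, Snord1a with Snhg16 and Snord123 with Snhg18 had counts in every library. Snord1a, a C/D snoRNA with near-identical copies in the same host, had 454, 508 and 379 normalized counts in model libraries a, b and c and 281, 398 and 539 with AVE0991, so the groups overlapped. Its host Snhg16 had 396, 701 and 296 in the model group and 545, 362 and 224 with AVE0991. In the AVE0991 group the library with most Snord1a had least Snhg16. The log2 ratio of guest to host was 0.03 ± 0.43 and 0.15 ± 1.11 (SD, n = 3), which differed by 0.12 (exact permutation test, two-sided, p = 1.0).

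Snord123, a C/D snoRNA inside Snhg18, had 158, 201.4 and 184 normalized counts in the model libraries and 154, 140.8 and 152 with AVE0991. Snhg18 had 215, 175 and 103 in the model libraries and 149, 120.4 and 193 with AVE0991. All treated libraries were below all model libraries for the guest, by a narrow margin, while the host's groups overlapped. The log2 ratio differed by -0.22 (exact permutation test, two-sided, p = 0.7). The last pair, Snora26 with Dancr, a non-coding RNA linked to keeping cells undifferentiated, had 12 guest counts in all in the treated libraries and 5 in the untreated ones. Snora26 was removed by the filter on low counts (edgeR adjusted p = 0.668 with no filter), and Dancr had a log2 fold change of -0.27 ± 0.24 (SE).

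**Figure D3:**
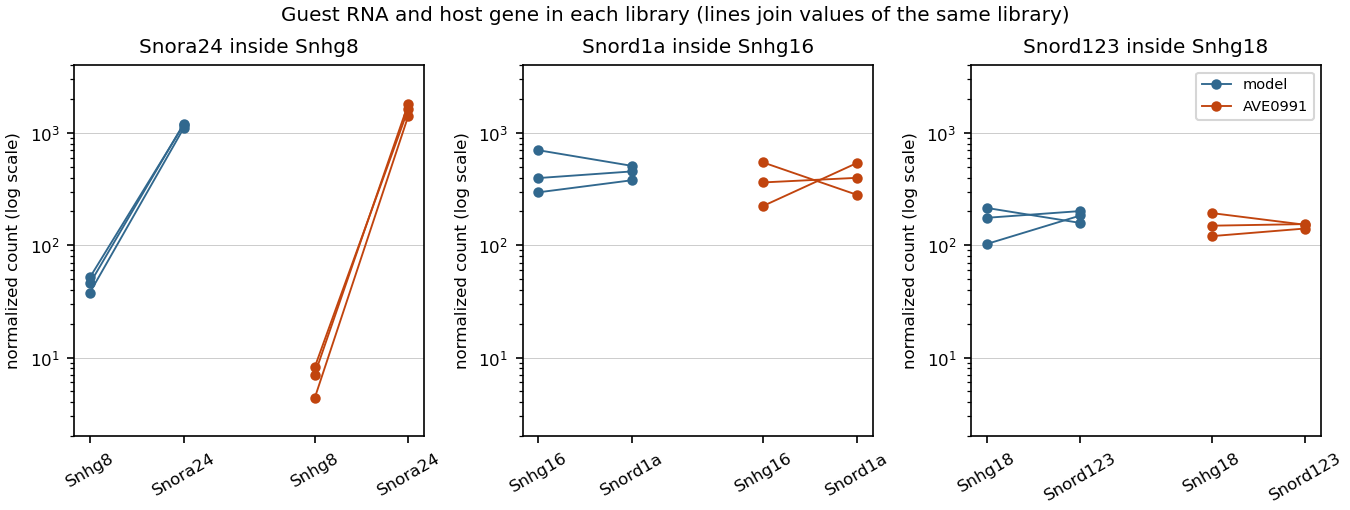
Normalized count (log axis) of a host gene and of the snoRNA inside it, with lines joining values of the same library, for Snhg8 and Snora24, Snhg16 and Snord1a, and Snhg18 and Snord123. Only in the panel of Snora24, of the 3 drawn, do the groups separate in the host, where Snhg8 falls from a mean of 45.1 to 6.52; in the other 2 panels the host values of the groups overlap.

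Among the other H/ACA snoRNAs, Snora3 fell. It lies within Rpl27a, a gene of a large-subunit ribosomal protein. It had 174, 147 and 125 normalized counts in model libraries a, b and c and 71.6, 52.0 and 76.0 with AVE0991, with no overlap. The log2 fold change was -1.10 ± 0.27 (SE; edgeR adjusted p = 0.0272). The call was lost without AVE0991 library a or b or model library a or b (edgeR adjusted p from 0.0680 to 0.111).

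Snora33, within the ribosomal protein gene Rps12, had 308, 413 and 349 normalized counts in the model libraries and 224, 304 and 212 with AVE0991. The highest treated library lay just under the lowest model library. Its log2 fold change of -0.48 ± 0.21 (SE) did not pass (edgeR unadjusted p = 0.0474, adjusted p = 0.156), and its 95% interval ran from -0.95 to -0.01.

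The abundant H/ACA snoRNAs other than Snora24 did not pass. Snora65, within Rpl12, had 1416, 1216 and 1272 normalized counts in the model libraries and 1186, 1203 and 1136 with AVE0991. The treated libraries were all lower, by margins as small as that between 1216 and 1203, and the log2 fold change of -0.10 had a 95% interval from -0.41 to 0.22. Snora43, which lies in Snhg7, a host gene not analysed here, had 846, 857 and 561 in the model libraries and 579, 638 and 622 with AVE0991, so that model library c was the lowest of all 6. Snora31, a guide within Tpt1 that has been linked to antiviral defence of neurons, had 557, 768 and 652 in the model libraries and 660, 727 and 536 with AVE0991. Its log2 fold change was 0.01, with a 95% interval from -0.40 to 0.43.

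Snora35, within the serotonin receptor gene Htr2c and known as a brain snoRNA, had 626, 592 and 566 normalized counts in the model libraries and 722, 473 and 551 with AVE0991. The groups overlapped, with the highest and the lowest value both in the treated group, and the log2 fold change was 0.02 ± 0.19 (SE). The other 5 H/ACA snoRNAs tested, Snora21, Snora23, Snora30, Snora47 and Snora81, had log2 fold changes from -0.57 for Snora30 to 0.29 for Snora21. None of these passed, and Snora30 had 95% bounds of -1.80 and 0.66 on means of 32.9 and 21.4 normalized counts.

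Of the C/D snoRNAs, Snord89 rose. It had 247, 273 and 249.5 normalized counts in model libraries a, b and c and 427, 339 and 362 with AVE0991, with no overlap. The log2 fold change was 0.60 ± 0.17 (SE; edgeR adjusted p = 0.0472). This call sat close to the threshold and was lost in every fit with a library left out (edgeR adjusted p from 0.0753 to 0.151), and also with library totals in place of scaling factors (0.0548) and with no filter on low counts (0.0618).

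Snord118, Snord13 and Snord3a are made from genes of their own and act in processing of ribosomal RNA or, for Snord13, in its acetylation. Snord118, needed for maturation of the large-subunit RNAs and mutated in a human leukoencephalopathy, had 151, 143 and 217 normalized counts in the model libraries and 283, 255 and 246 with AVE0991. The groups did not overlap, and model library c was nearest to the treated ones. Its log2 fold change of 0.67 ± 0.22 (SE) did not pass (edgeR adjusted p = 0.0748), and without model library c it was 0.88 and passed (edgeR adjusted p = 0.0186). That fit called more of all names as well, 420 against 302 with every library. Snord13 had 78.1, 121.7 and 75.8 in the model libraries and 54.4, 62.2 and 48.9 with AVE0991, with no overlap and a log2 fold change of -0.68 ± 0.30 (SE; edgeR adjusted p = 0.166). Snord3a, which acts in early cleavage toward the small-subunit RNA, had 699, 913 and 760 in the model libraries and 588, 756 and 524 with AVE0991. Its groups overlapped (log2 fold change -0.29 ± 0.19, SE), and its value is uncertain because the gene has near-identical copies. The 3 RNAs thus had values on both sides of 0, and none passed.

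Snord61, within the RNA-binding protein gene Rbmx, was the most abundant C/D snoRNA. It had 2083, 2289 and 1540 normalized counts in the model libraries and 1637, 1545 and 1557 with AVE0991. Model libraries a and b were above the treated ones and model library c just under them, and the log2 fold change was -0.27 with a 95% interval from -0.64 to 0.11. Snord52, in the non-coding gene 1110038B12Rik, had 451, 460.0 and 358 in the model libraries and 479, 448 and 468 with AVE0991 (log2 fold change 0.19 ± 0.17, SE). Snord35b had 440.3, 528 and 349 in the model libraries and 545, 449 and 298 with AVE0991, and a log2 fold change of 0.02 with a 95% interval from -0.54 to 0.58.

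The remaining C/D snoRNAs tested were Snord104, Snord15b, Snord17, Snord58b and Snord85. Their log2 fold changes ran from -0.59 for Snord58b, which lies in Rpl17, to 0.09 for Snord17, and none passed. Snord83b, in Rpl3, was seen only in treated libraries, with 4, 8 and 1 counts in libraries a, b and c of the AVE0991 group and 0 in each model library. Its summed treated level was 4.98-fold a limit of 3 counts over the model group. That limit allows for counting error in the model group only. It leaves out counting error in the treated libraries and the spread between libraries, so the value is not a lower bound. The filter on low counts removed it from the edgeR fit. With no filter its edgeR adjusted p was 0.203, and in the DESeq2 Wald test 0.198. The authors' deposited table gave it an unadjusted p of 0.164.

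The 2 scaRNAs had fold changes of opposite sign. Neither passed in edgeR, DESeq2 or limma-voom, and 1 had an unadjusted p under 0.05 in edgeR. Scarna8, within Haus6, had 643, 601 and 507 normalized counts in model libraries a, b and c and 369.9, 447 and 369.2 with AVE0991. All treated libraries were lower (log2 fold change -0.51 ± 0.18, SE; edgeR adjusted p = 0.0836), and without model library c the value was -0.61 and passed (edgeR adjusted p = 0.0478). The fit without that library called 420 of all names, against 302 with every library. Scarna6, within the autophagy gene Atg16l1, had 597, 541 and 311 in the model libraries and 742, 526 and 540 with AVE0991. The groups overlapped, with model library c well under the rest, and the log2 fold change was 0.37 with a 95% interval from -0.23 to 0.96. Without model library c it was 0.13.

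**Figure D4:**
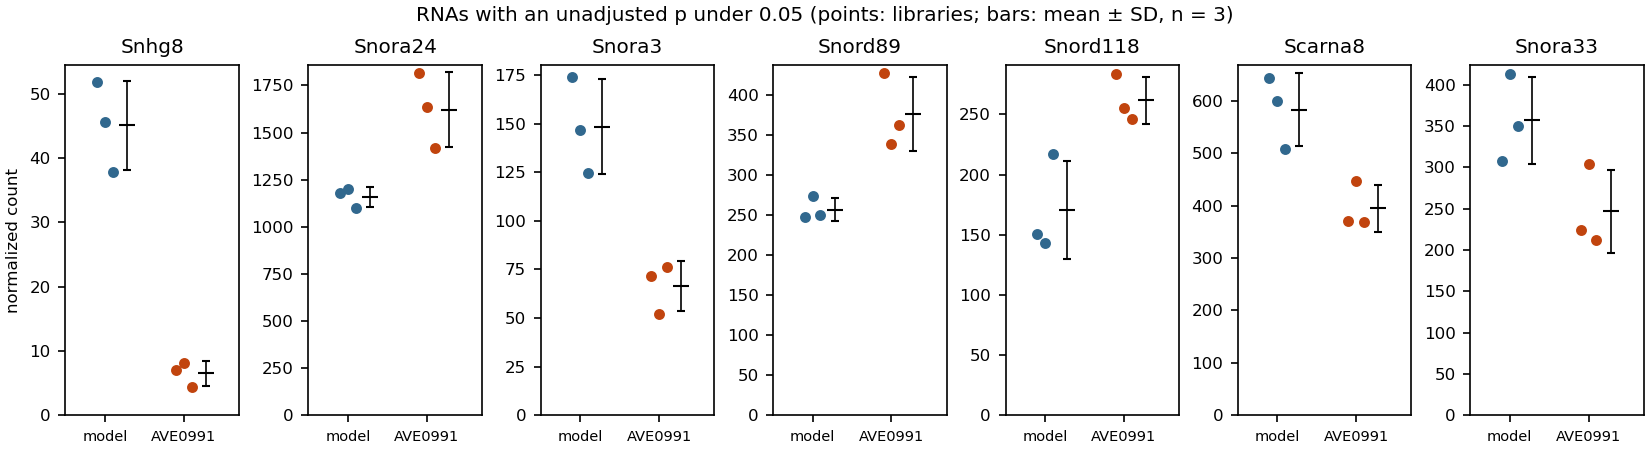
Normalized count (linear axes from 0) in each library of the 7 RNAs with an unadjusted p under 0.05, with the mean and SD of 3 libraries beside the points. In each panel the points of the 2 groups do not overlap; Snhg8, Snora3, Scarna8 and Snora33 are lower with AVE0991 and Snora24, Snord89 and Snord118 higher, and the last of these has model library c, at 217, nearest to the treated points.

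Apart from Snhg8, no host gene passed. Gas5, a growth-arrest RNA that carries a row of C/D snoRNAs, had 5124, 5167 and 6440 normalized counts in model libraries a, b and c and 6164, 6366 and 6218 with AVE0991. Model library c was the highest of all 6, and the log2 fold change was 0.22 ± 0.14 (SE), with a 95% interval from -0.09 to 0.53. Snhg3, host of H/ACA snoRNAs of the Snora73 family, had 2376, 2448 and 1482 in the model libraries and 1963, 1742 and 1682 with AVE0991. Here too model library c lay outside the treated range, on the low side (log2 fold change -0.18 ± 0.20, SE). The value was -0.38 without model library c (edgeR adjusted p = 0.0755) and -0.07 without model library b. Snhg4, host of Snora74a, had 871, 1062 and 1192 in the model libraries and 1122, 2138 and 1023 with AVE0991. A single treated library, b, lifted its mean, and the log2 fold change was 0.50 with a 95% interval from -0.12 to 1.13.

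Snhg20, host of a scaRNA, was the other host gene without overlap. It had 1176, 1214 and 1251 normalized counts in the model libraries and 1014, 1097 and 808 with AVE0991. Its log2 fold change of -0.27 ± 0.15 (SE) did not pass (edgeR adjusted p = 0.275). Snhg1, which carries several C/D snoRNAs, had 1016, 1068 and 840.0 in the model libraries and 811, 807 and 937 with AVE0991, with overlap and a log2 fold change of -0.14 ± 0.16 (SE). Snhg5, Snhg10, Snhg12 and Snhg15 had values from -0.32 for Snhg5 to 0.33 for Snhg12. Snhg10 had only 7 to 23 counts in each library, so its 95% interval, from -1.52 to 1.40, leaves a change of more than 2-fold in either direction possible.

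The small RNAs were also divided by the gene whose RefSeq span holds them, a property not used to choose them. Of the 30 small RNAs, 8 lie in ribosomal protein genes, 11 in other protein-coding genes and 7 in non-coding genes, 3 lie in no other RefSeq gene, and Snord3a had no RefSeq match. Among the 7 tested in ribosomal protein genes, 1 fell (Snora3), where 8.36% of all names fell, and 3 had treated libraries all below the model ones (Snora3, Snora33 and Snora65), where 22.5% of all names did. Their median log2 fold change was -0.18. Of the 11 in other protein-coding genes none passed the edgeR test, against 16.2% of all names, 1 (Scarna8) had an unadjusted p under 0.05, against 30.8%, and the median was -0.15. DESeq2 and limma-voom, which called 18.3% and 18.1% of the names they tested, called none of these 11 either. They used the same libraries, so they are not independent of edgeR. Whether these 11 RNAs differ from the shares over all names was not tested. The 6 tested in non-coding genes had a median of -0.15, with Snora24 the 1 that rose, where 7.82% of all names rose. The 3 in no other gene were Snord118, Snord89 and Snord13, at 0.67, 0.60 and -0.68.

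Per length, the order of the small RNAs was much the same in both groups. Levels are given here as normalized counts per kilobase of the RefSeq span, taken as the length of the RNA. Libraries of total RNA may recover such short RNAs in part, and unequally, which was not tested. The order between RNAs therefore need not be that of their amounts. Snord61 was highest, at 31788 ± 6238 in the model group and 25477 ± 806 with AVE0991 (SD, n = 3). Snora65 and Snora24 followed, at 11030 ± 873 and 8907 ± 410 in the model group and 9958 ± 296 and 12476 ± 1533 with AVE0991, so that these 2 exchanged places. Snord52 ranked 4 in both groups, at 7169 ± 962 and 7879 ± 265. Snora31 and Snord1a, at 5883 ± 945 and 5882 ± 855 in the model group, did not differ beyond their spread. Snord89 moved from rank 16 to rank 11. At the low end were Snord15b, Snora26 and Snord83b. Across the 27 small RNAs that were tested and matched to RefSeq, log2 fold change and span had a Spearman's rho of 0.25, and across 28 log2 fold change and mean level had one of 0.29. These RNAs share their 6 libraries and are not independent points.

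Other RNAs of the same pathway were looked for from a list of 31 snoRNP proteins, related small RNAs and further host genes. Of these, 9 were in the named table, all of them non-coding RNAs, so the snoRNP proteins were not covered. Of the 9, 6 were tested and none passed the edgeR test. Limma-voom called 0 as well, while DESeq2 called 2, Zfas1 and 2410006H16Rik, both higher with AVE0991, where it called 18.3% of all names (9.83% higher). Zfas1, a host of C/D snoRNAs, had 926, 940 and 782 normalized counts in model libraries a, b and c and 1210, 1222 and 1013 with AVE0991, with no overlap (log2 fold change 0.43 ± 0.15, SE; edgeR adjusted p = 0.0894). The clone-named 2410006H16Rik had 879, 1046 and 958 in the model libraries and 1542, 1175 and 1137 with AVE0991, also with no overlap (0.47 ± 0.16, SE; edgeR adjusted p = 0.0840). Both had an unadjusted p under 0.05, at 0.0202 and 0.0183 (edgeR). Over all names 30.8% reached that level and 39.0% had no overlap, so 2 of 6 is near the background. Terc, the telomerase RNA, which ends in an H/ACA domain, had 61.1, 46.5 and 25.0 in the model libraries and 24.2, 44.9 and 20.6 with AVE0991, and a log2 fold change of -0.51 ± 0.50 (SE). Its groups overlapped. Mirg and Epb41l4aos had log2 fold changes of 0.04 ± 0.17 and 0.09 ± 0.22 (SE).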

How the data were processed

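RNA of 6 samples (3 model, 3 AVE0991, grouped by title) was analysed. Reads were checked with FastQC 0.11.8 and, if necessary, trimmed with fastp 0.19.5, per the labels' protocols, and STAR 2.7.7a, DESeq2 1.10.1 and mm9 are named per the submitters' processing notes. The sources used here do not name the counting program, the annotation or the strandedness, so reads of a snoRNA and of an overlapping or antisense gene may not be told apart. Libraries of total RNA may recover such short RNAs in part, which was not tested.

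The authors deposited a table by gene name with, per the file headers, the mean signal of each group, their difference with bounds and a t statistic (each a score), degrees of freedom, an unadjusted p-value, a ratio of means after adding 1, and its log2. They also deposited whole-number counts by identifier, used here for depth only (37036986 to 52029003 counts a sample), since no file pairs identifiers with names.

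The authors' means are means of 3 counts over library factors (0.921 to 1.18). Counts were recovered from means, statistic and degrees of freedom: 2240 of 2247 names with values (99.69%) had 1 set within relative tolerances of 2e-09 (sum) and 1e-07 (statistic); 6 had several sets, 1 lay above the level solved, and 35 names were 0 throughout. The tolerance on the statistic was tightened after a first run left more names with several sets. On data simulated around each library's own recovered counts, 2232 of 2235 names had 1 set, all correct; an earlier simulation from group means left too few names counted in a single library to find the factors and recovered none. edgeR 4.0.16 (quasi-likelihood, TMM, filterByExpr; R 4.3.3) was fitted to all recovered names, with Benjamini-Hochberg adjusted p under 0.05; SE is the log2 fold change over the square root of F. In a simulation of this comparison (1855 tested), 35.7% of 98 names changed 2-fold and 82.8% of 93 changed 4-fold were called, and 3.45% of calls were unchanged names. Alternatives were other scaling, filters, DESeq2 1.42.0, limma-voom 3.58.1, the authors' p adjusted here, and each library left out. Members and lists were chosen with earlier results of these data known. Named with values were members with an unadjusted p under 0.05, members of pairs, the 4 most abundant of each class, and others chosen after their values were seen. RefSeq (GRCm38.p6) matched 41 of 42 names and gave spans without strand; no coordinates or sequences are given.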

Additional observations from a re-analysis of the deposited data

How the results depend on the processing

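The 4 calls kept their direction in all 13 alternatives. The groups did not overlap for any of the 4, so these fits could hardly have reversed a direction. The kept direction therefore does not show that the calls are stable. DESeq2 size factors, a mean of at least 10 normalized counts, the DESeq2 Wald test and limma-voom each called the same 4 RNAs. They used the same libraries, so they are not independent of the main fit. With library totals, and with no filter on low counts, Snord89 was lost, leaving 0 C/D snoRNAs. The authors' deposited test, with its p-values adjusted over all names here, called 0 of all names. It thus called 0 H/ACA snoRNAs, 0 C/D snoRNAs and 0 host genes. Before adjustment, 424 of its 2247 p-values were under 0.05. Over the 1867 names that edgeR tested it had 418 under 0.05, where edgeR had 575. With 1 library left out, fewer samples enter: the count over all names ran from 99 to 420, that of H/ACA snoRNAs from 0 to 2, of C/D snoRNAs from 0 to 1 (Snord118, without model library c), of scaRNAs from 0 to 1 (Scarna8, without model library c) and of host genes from 0 to 1. Without model library c 420 names were called, 287 of them among the 302.

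Of the 40 RNAs, 12 changed sign in some fits, none of them past the threshold in any. In the authors' test Snora31, Snora35, Snord35b and Snhg15 were at -0.039, -0.032, -0.029 and -0.0056, and limma-voom put Snora35 at -0.00036. Over the fits with a library left out, the log2 fold change ran from -0.60 to 0.15 for Snhg16, from -0.29 to 0.21 for Snhg18, from -0.10 to 0.12 for Snora31, from -0.37 to 0.13 for Snord1a, from -0.17 to 0.21 for Snord35b, from -0.62 to 0.21 for Snhg10, from -0.15 to 0.22 for Snhg15, from -0.045 to 0.59 for Snora21, from -0.15 to 0.15 for Snora35, from -0.26 to 0.020 for Snora47, from -0.23 to 0.37 for Snord17 and from -0.35 to 0.030 for Snord85. The difference in log2 ratio ran from -0.54 to 0.10 for Snord123 over Snhg18 and from -0.44 to 0.67 for Snord1a over Snhg16; the cause was not tested. A pseudocount of 1 gave 3.12 for Snora24 over Snhg8. No paired analysis was possible because the libraries recovered from the named table carry no replicate number. Depth limits Snhg10, Snora26, Snora30, Snord15b and Snord83b. Snhg8 is limited by depth on the treated side, where single libraries held only 7, 8 and 4 counts of it. The size of its fold change, and of the treated ratios of Snora24 to Snhg8, therefore rests on few host counts.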
